A study of Mus musculus with 19 samples.

Results

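The nuclear receptors of mouse liver outside the feedback loop of the circadian clock were followed across 4 doses of dibenz[a,h]anthracene (DB[a,h]A), a polycyclic aromatic hydrocarbon. They were 35 listed genes, found as every non-control probe whose RefSeq accession belonged to one of them. These genes had 54 of the 55681 probes on the array, out of 20018 genes with a symbol. The livers were those of 19 males of transgenic mouse strain 40.6, aged 10 weeks, and were taken 3 days after exposure. Each animal gave 1 Agilent array, with 5 animals at 0 mg/kg, 5 at 6.25, 4 at 12.5 and 5 at 25 mg/kg. All groups shared strain, sex, age and time point, and the labels name no vehicle or route for the animals at 0 mg/kg. Every array carried liver in the red dye and a bought reference RNA of 11 mouse cell lines in the green dye. A value is therefore the log2 ratio of liver over reference for 1 probe. It does not rank the receptors by amount, and the dyes were never swapped.

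Nuclear receptors are transcription factors that bind DNA through zinc fingers and, in most cases, change partners when a small lipid-soluble ligand fills their pocket. In liver they read fatty acids, bile acids, oxysterols, foreign chemicals, steroids, thyroid hormone and retinoids, and set the enzymes that make or clear them. Many pair with a retinoid X receptor, some act as monomers or homodimers, and several have no known natural ligand. DB[a,h]A itself acts through the Ah receptor, which is not a nuclear receptor but binds a DNA element with the core GCGTG.

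A probe entered the tests when its liver signal was well above background on at least 4 arrays. That kept 51 of the 54 probes and 33 of the 35 genes. The brightest kept probe stood for its gene, and for 28 genes it was above background on 19 of 19 arrays. Nr4a3, an orphan receptor induced by acute stimuli, was above background on 0 arrays, and Nr6a1, an orphan receptor of germ cells, on 3, so neither was tested. No member passed at any dose when the ratios of all 19 livers were compared with no slide term. Ppard and Esrra passed at 25 mg/kg once the slide was a term of the fit. Ppard fell and Esrra rose at that dose, and Ppard was also below control at the lower doses, where it did not pass. Both genes also passed at 25 mg/kg without that term when the liver channel was read without the reference.

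The start region of these 2 genes is shown because they carry the changes described next. Each run is taken from RefSeq on build GRCm38.p6, from 250 bases before the start to 50 after it, 5′ to 3′ on the gene's strand. Capitals mark matches to GCGTG on either strand, which overlap in Esrra.
Ppard: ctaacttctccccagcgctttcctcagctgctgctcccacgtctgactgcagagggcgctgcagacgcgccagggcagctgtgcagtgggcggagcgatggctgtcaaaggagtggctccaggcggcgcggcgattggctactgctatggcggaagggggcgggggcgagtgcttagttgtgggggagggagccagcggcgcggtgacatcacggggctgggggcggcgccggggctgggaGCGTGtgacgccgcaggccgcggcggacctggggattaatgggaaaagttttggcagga
Esrra: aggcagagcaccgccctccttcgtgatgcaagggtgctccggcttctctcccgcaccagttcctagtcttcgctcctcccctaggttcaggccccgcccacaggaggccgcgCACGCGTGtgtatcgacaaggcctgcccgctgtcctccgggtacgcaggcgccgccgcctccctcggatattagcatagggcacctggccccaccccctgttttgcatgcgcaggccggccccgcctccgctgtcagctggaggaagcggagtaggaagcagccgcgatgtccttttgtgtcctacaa
The Ppard run is chr17:28232504-28232803 on the plus strand and holds 1 match, 9 bases before the start. The Esrra run is chr19:6921759-6922058 on the minus strand and holds 2 overlapping matches, whose first bases lie 135 and 138 bases before the start. RefSeq promoters were at hand for 32 of the 35 genes, 51 in all, and not for Hnf4g, Nr3c1 and Thra. GCGTG stood in 49% of these 51 and in 32.4% of all 32851 promoters of the table. It was found in 22 of the 32 genes, so it was not particular to Ppard and Esrra. The shares were not adjusted for the GC content of the promoters. The E-box CACGTG stood in 9.8% against 7.15%, in Nr0b2, Nr1i3, Rara and Thrb. AGGTCA, a core element of nuclear receptor binding sites, stood in 19.6% against 16.3%. The D-box forms TTATGTAA and TTACGTAA stood in 0 of the 51 and in 0.938% and 0.119% of all promoters. Motifs were searched on both strands, and a match describes letters only.

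Slide went with more of the spread of these receptors than dose did. Changes are therefore given with slide as a block or within slides for many genes, Ppard and Esrra among them, but not for all. Other genes are given by pooled ranges or unblocked changes, in which slide is not accounted for. There were 2 controls and 1 array per dose on slide 1, 2 arrays per group on slide 2, and 1 control, 1 array at 12.5 and 2 at either other dose on slide 3. Slide accounted for a median of 39.9% of the variance of the 33 genes and dose group for 15.2%, against 40.8% and 13.3% over all 13812 genes. These shares are not adjusted for the number of slides or dose groups, so part of each would arise from grouping alone. For 25 of the 33 genes slide had the larger share. Hnf4a averaged 6.28, 5.01 and 5.19 on slides 1, 2 and 3, and Ppara 7.51, 6.11 and 6.51. Between 35.5 and 56.7% of an array's spots had a liver signal well over background, and no more than 47.1% did on the 12.5 mg/kg arrays. The labelled tissue showed its markers: 9 of 9 hepatocyte markers on the array were above background on all 19 arrays, with a mean log2 ratio of 6.57 to 8.38. Markers of other cell types were in part detected: on 19 arrays Krt19 and Spp1 of bile ducts, Cd3e, Ptprc and Nkg7 of lymphocytes and Ctrb1 of exocrine pancreas, and on 0 arrays Cftr, Cd8a, Prss2 and Pnlip of the same lists. The samples are bulk tissue, so fewer cells of a type and less RNA per cell cannot be told apart.

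**Figure D1:**
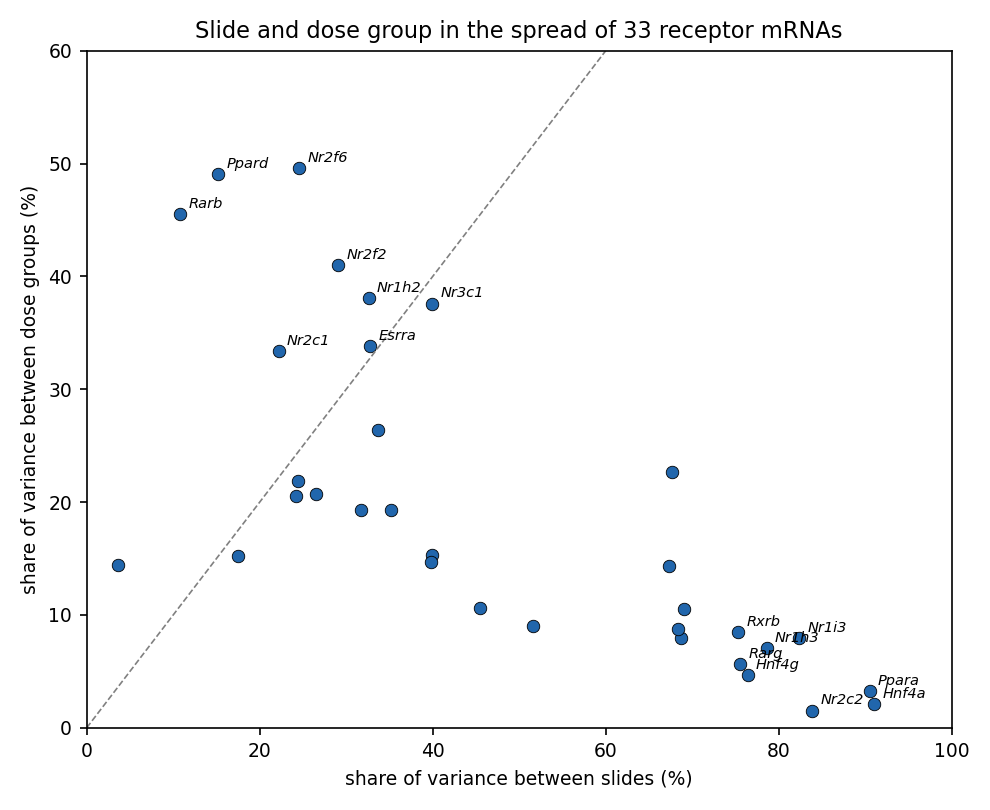
Share of the variance between the 3 slides (horizontal, %) and between the 4 dose groups (vertical, %) for each of 33 receptor genes, 1 point per gene. The dashed line marks equal shares. 25 genes lie below it, with Hnf4a and Ppara above 90% for slide, while Ppard, Nr2f6 and Rarb lie above it.

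Among the receptors for fatty acids, Ppard was lower in treated than in control liver by a similar amount at all doses, and passed at 25 mg/kg with the slide block. PPAR delta, its product, is expressed widely and drives fatty acid oxidation. The 5 controls had log2 ratios of -0.87 and -1.26 on slide 1, -0.07 and -0.87 on slide 2 and -0.28 on slide 3. At 6.25 mg/kg they were -1.73 on slide 1, -1.53 and -1.64 on slide 2, and -1.04 and -1.02 on slide 3. Those at 12.5 mg/kg were -1.64 on slide 1, -1.24 and -1.06 on slide 2, and -1.49 on slide 3. Those at 25 mg/kg were -2.0 on slide 1, -1.25 and -1.30 on slide 2, and -1.31 and -1.29 on slide 3. The pooled ranges overlapped through 1 slide 1 control. Within each slide every treated array lay below every control array. That held on all 3 slides for 1 of the 51 member probes, this one, and for 0.415% of all 29415 probes. The opposite order on all 3 slides was found for 0 member probes and 0.303% of all probes.

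The log2 change of Ppard at 25 mg/kg was -0.76 ± 0.22 (SE, 5 against 5 arrays, limma over all probes, adjusted p = 0.266), a 1.69-fold lower ratio. With slide as a block it was -0.89 ± 0.15 (95% interval -1.20 to -0.57, limma adjusted p = 0.0151). The change at 12.5 mg/kg was -0.69 without the block (limma adjusted p = 0.990) and -0.77 with it (adjusted p = 0.149). At 6.25 mg/kg it was -0.72 (adjusted p = 0.827) and -0.85 (adjusted p = 0.0704). The blocked change at these lower doses did not pass in limma. All treated livers together differed from control by -0.72 ± 0.18 (adjusted p = 0.205) and, with the block, by -0.83 ± 0.12 (adjusted p = 0.00956). Within slides 1, 2 and 3 the difference was -0.94, -0.80 and -1.01 at 25 mg/kg, -0.57, -0.68 and -1.21 at 12.5, and -0.67, -1.12 and -0.74 at 6.25. The difference between 25 and 6.25 mg/kg was -0.04 (95% interval -0.49 to 0.42), so the arrays did not separate these doses. The linear trend on dose had an adjusted p of 0.661 without and 0.179 with the block.

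The same order stood in the liver channel without the reference, which came from the same arrays and was quantile normalised between them. Its log2 signal ran from 8.98 to 9.86 in controls, 8.16 to 8.88 at 6.25 mg/kg, 8.26 to 8.81 at 12.5 and 8.52 to 8.71 at 25. Every treated array lay below every control array, which held for 0.0578% of all probes and for Ppard alone among the 33 genes. With no slide term that channel gave -0.85 ± 0.16 at 25 mg/kg (limma adjusted p = 0.0253) and -0.86 ± 0.13 for all treated livers (adjusted p = 0.00880). Ppard was above background in liver and in reference on 19 of 19 arrays. It had 1 probe, so no second probe bears on it. Leaving out the 1 control of slide 3 ended the blocked calls (adjusted p = 0.0652 at 25 mg/kg and 0.0707 for all treated livers), and leaving out any of the other 18 arrays did not.

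**Figure D2:**
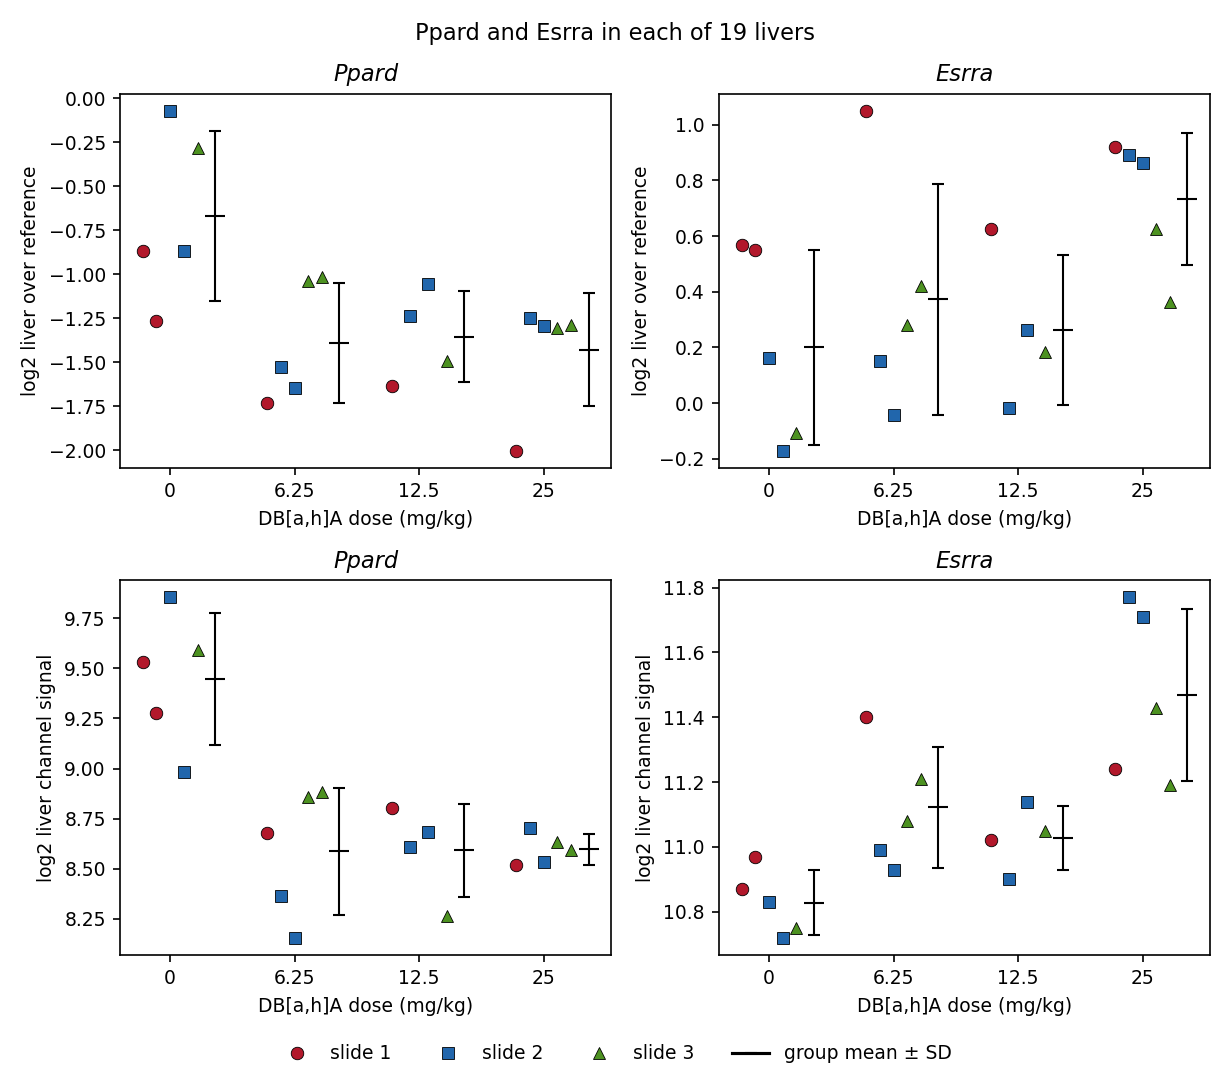
Ppard (left) and Esrra (right) in each of the 19 livers by dose (mg/kg). The upper panels plot the log2 ratio of liver over reference and the lower panels the log2 liver channel signal alone. Colours and shapes give the slide, and bars the group mean ± SD. In the lower left panel all 14 treated livers lie below 8.98, the lowest control, and in the lower right panel the 5 livers at 25 mg/kg lie above 10.97, the highest control.

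The other PPAR genes did not pass. Ppara, the fatty acid sensor that turns on oxidation and ketogenesis in fasting liver, ran from 6.17 to 7.47 in controls and from 5.84 to 7.44 at 25 mg/kg. The ranges lay on top of each other. Its blocked change at 25 mg/kg was -0.09 ± 0.12 (95% interval -0.35 to 0.17). Its other probes had unblocked changes of 0.16 and 0.12, against -0.29 on the brightest, with no p under 0.05. Pparg, the adipogenic receptor, ran from -0.75 to 0.23 in controls and from -0.96 to -0.03 at 25 mg/kg, with a blocked change of -0.13 ± 0.18. Its probe was printed 10 times per array, and the SD between those spots had a median of 0.0867. The SD between animals of a group was 0.0754 to 0.386, so the spots differed less than the animals except in the tightest group.

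Of the receptors related to the estrogen receptor, Esrra was higher at 25 mg/kg. ERR alpha, its product, has no known natural ligand and works with PGC-1 coactivators on mitochondrial genes. Controls had log2 ratios of 0.57 and 0.55 on slide 1, 0.16 and -0.17 on slide 2 and -0.11 on slide 3. At 25 mg/kg they were 0.92 on slide 1, 0.89 and 0.86 on slide 2, and 0.63 and 0.36 on slide 3. The pooled ranges overlapped through the slide 1 controls, and within each slide all 25 mg/kg arrays lay above the controls. The lower doses overlapped with both, with -0.04 to 1.05 at 6.25 mg/kg and -0.02 to 0.63 at 12.5. That order within slides was shared. On their brightest probes 4 member genes, Esr1, Esrra, Nr1i2 and Nr1i3, had every 25 mg/kg array above the controls. So did 4.4% of all probes, but the second Nr1i3 probe did not on slide 1. Ppard alone had the reverse order, as did 4.99% of all probes.

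The log2 change of Esrra at 25 mg/kg was 0.53 ± 0.20 (limma adjusted p = 0.466), and 0.65 ± 0.13 with slide as a block (95% interval 0.38 to 0.91, adjusted p = 0.0252). The difference within slides 1, 2 and 3 was 0.36, 0.88 and 0.60. The change at 12.5 mg/kg was 0.06 (blocked 0.14, adjusted p = 0.781) and at 6.25 mg/kg 0.17 (blocked 0.29, adjusted p = 0.387). The blocked difference between 25 and 12.5 mg/kg was 0.50 (95% interval 0.22 to 0.78, limma adjusted p = 0.161) and did not pass. The blocked trend on dose came to an adjusted p of 0.0589. In the liver channel alone the controls ran from 10.72 to 10.97 and the 25 mg/kg livers from 11.19 to 11.77. Those groups did not overlap, as for 1.84% of all probes. There the change was 0.64 ± 0.12 with no slide term (limma adjusted p = 0.0238). The blocked call ended without any 1 of 6 arrays, replicates 1, 3 and 4 of the controls and of 25 mg/kg. The adjusted p was then 0.0537 to 0.0959, with a change of 0.57 to 0.66.

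Esr1, the main estrogen receptor of liver, ran from 0.88 to 1.54 in controls and 1.05 to 2.07 at 25 mg/kg, with a blocked change of 0.41 ± 0.22 (adjusted p = 0.423). Esrrg, a relative induced by fasting, was above background on 13 of 19 arrays. Its log2 ratios ran from 0.66 to 1.08 in controls, 0.65 to 1.38 at 6.25 mg/kg, 0.23 to 1.05 at 12.5 and 0.61 to 1.03 at 25. The pooled groups overlapped for both, although within each slide the 25 mg/kg arrays of Esr1 lay above the controls.

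The counts over all members follow, beside those over all probes. At 25 mg/kg 0 of 51 member probes passed limma without the block, where 0.0578% of all probes did, and 6 had an unadjusted p under 0.05 (11.8%, against 7.37%). With the block 2 passed, where 0.809% of all probes did, and 12 had an unadjusted p under 0.05 (23.5%, against 14.6%). In the liver channel alone the same 2 genes passed, beside 0.282% of all probes. At 12.5 mg/kg 0 member probes passed limma with or without the block, beside 0.0068% and 0% of all probes, and 0 passed in the liver channel, beside 0.0068%. There 3 probes had an unadjusted p under 0.05 (5.88%, against 4.21%), and 4 with the block (7.84%, against 9.5%). At 6.25 mg/kg 0 members and 0% of all probes passed limma with or without the block and in the liver channel. There 3 member probes had an unadjusted p under 0.05 (5.88%, against 5.57%), and 11 with the block (21.6%, against 11.7%).

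In the F test over the 3 doses 0 members passed limma without the block (0.0102% of all probes) and 4 had an unadjusted p under 0.05 (7.84%, against 5.08%). With the block 1 passed, Ppard (adjusted p = 0.0480), beside 0.0748% of all probes, and 16 had an unadjusted p under 0.05 (31.4%, against 14.2%). In the linear trend 0 passed limma without the block, beside 0.0204%, and 4 probes had an unadjusted p under 0.05 (7.84%, against 5.87%). With the block 0 passed, beside 0.241%, and 9 had an unadjusted p under 0.05 (17.6%, against 10.8%). For all treated livers 0 passed limma without the block, beside 0.0374%, with 4 at an unadjusted p under 0.05 (7.84%, against 6.91%). With the block 1 passed, Ppard, beside 0.408%, and 8 had an unadjusted p under 0.05 (15.7%, against 12.8%). The liver channel alone gave the same gene, beside 0.112%. The median change of the 33 genes at 25, 12.5 and 6.25 mg/kg was -0.07, -0.02 and 0.11, and 0.00, 0.07 and 0.09 with the block. Over all 13812 genes it was -0.01, -0.02 and 0.00, and -0.005, -0.006 and 0.005 with the block. At 25 mg/kg 14 of the 33 had a value above control and 19 below, and with the block 17 and 16. At 12.5 mg/kg the counts were 15 and 18, and 20 and 13 with the block. At 6.25 mg/kg they were 20 and 13, and 24 and 9 with the block. Over all 13812 genes 48.3, 46.1 and 50.8% lay above control at 25, 12.5 and 6.25 mg/kg. With the block 6729, 6683 and 7094 of them did.

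**Figure D3:**
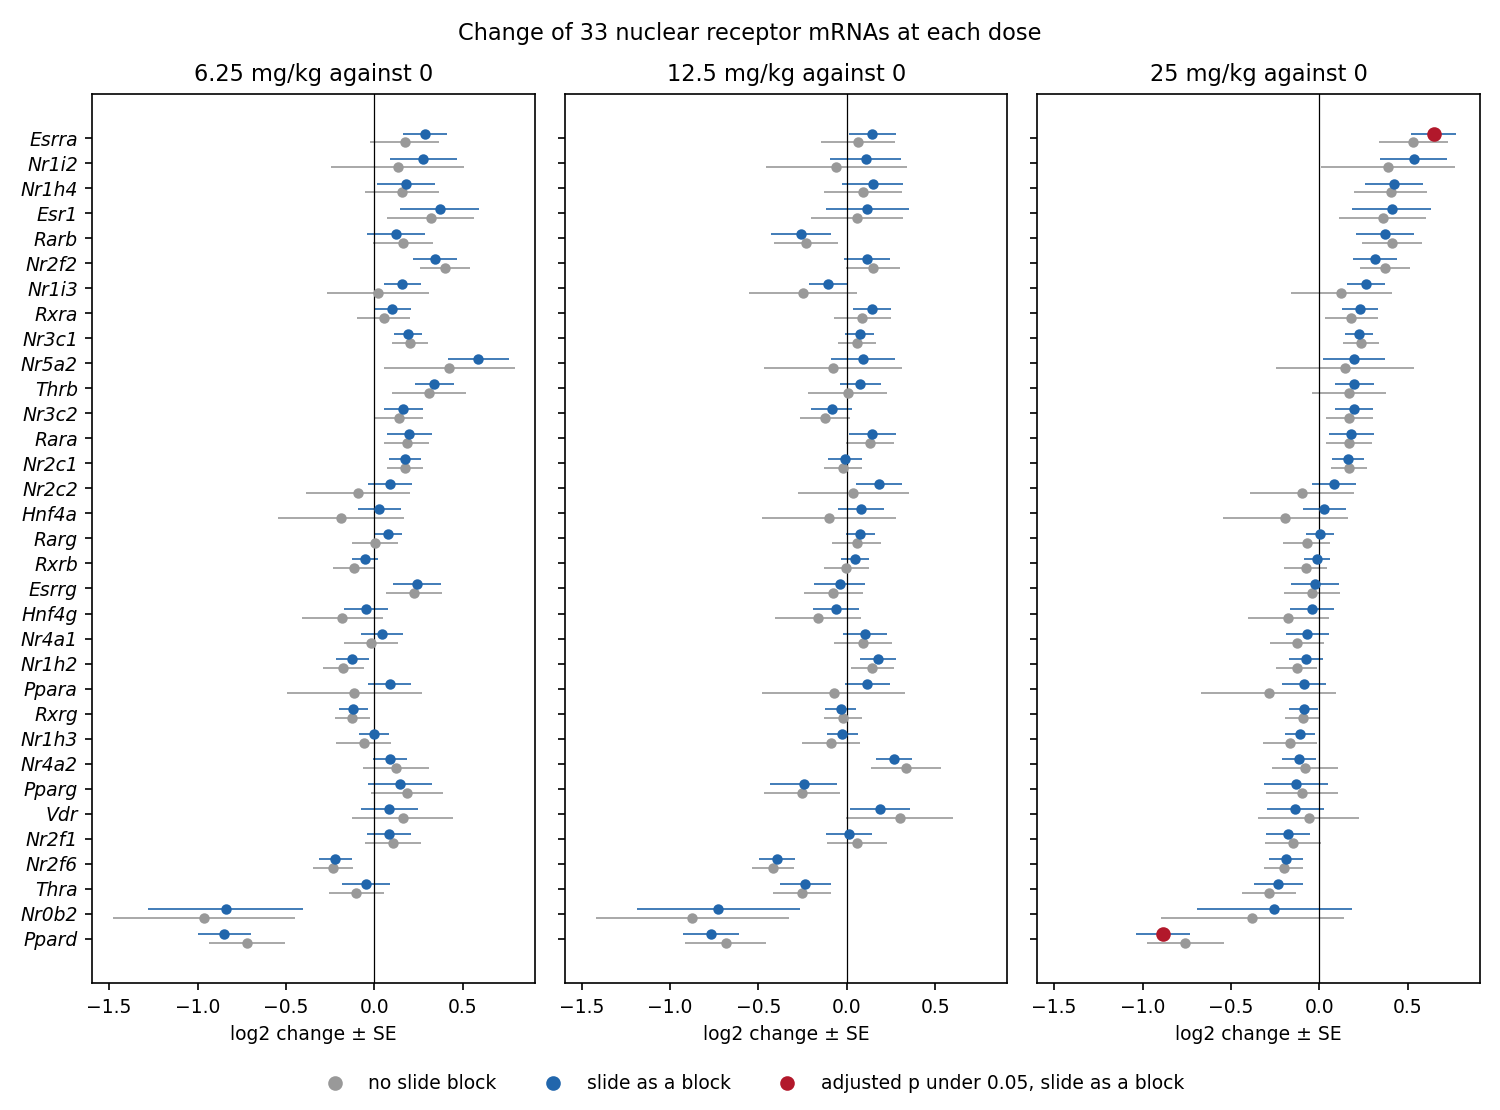
Log2 change ± SE of each of 33 receptor genes against 0 mg/kg at 6.25, 12.5 and 25 mg/kg, in grey without a slide term and in blue with slide as a block. Red marks an adjusted p under 0.05 with the block: Ppard (-0.89) and Esrra (0.65), both at 25 mg/kg. Nr4a2, Vdr and Hnf4g were above background on no array at 12.5 mg/kg.

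The xenobiotic receptors had high ratios of liver over reference and showed no passing change. Nr1i3 encodes CAR and Nr1i2 encodes PXR, which turn on drug-metabolising enzymes. Nr1i3 ran from 5.42 to 6.68 in controls and from 5.70 to 6.74 at 25 mg/kg, and Nr1i2 from 4.08 to 5.61 and from 4.73 to 5.66. The pooled groups overlapped for both. With the block the changes at 25 mg/kg were 0.26 ± 0.10 for Nr1i3 (95% interval 0.04 to 0.48, adjusted p = 0.247) and 0.53 ± 0.19 for Nr1i2 (0.13 to 0.93, adjusted p = 0.193). The second Nr1i3 probe gave 0.56 (limma adjusted p = 0.109), with differences of -0.11, 0.84 and 0.83 within slides 1, 2 and 3.

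Of the bile acid and sterol receptors, Nr1h4 encodes FXR, which senses bile acids. Its log2 ratios were 5.32 and 5.39, 4.86 and 4.57, and 5.04 in the controls of slides 1, 2 and 3. The 25 mg/kg livers had 5.31, 5.17 and 5.74, and 5.66 and 5.31. On slide 1 the treated liver was not above its controls, and on slides 2 and 3 it was. The change was 0.40 ± 0.21 (adjusted p = 0.718) and 0.42 ± 0.16 with the block (adjusted p = 0.233). Nr0b2 encodes SHP, a repressor without a DNA-binding domain that FXR induces. It varied most: 3.56 to 5.44 in controls, 2.27 to 4.96 at 6.25 mg/kg, 2.42 to 4.75 at 12.5 and 3.30 to 5.37 at 25. Its changes of -0.96, -0.87 and -0.38 had standard errors of 0.52, 0.55 and 0.52, and did not pass. Within slides the 6.25 mg/kg difference went from -2.42 to 0.37.

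The oxysterol receptor LXR alpha (Nr1h3) ran from 4.60 to 5.22 in controls and from 4.58 to 5.18 at 25 mg/kg. LXR beta (Nr1h2) ran from -0.57 to -0.19 and from -0.73 to -0.25. The blocked changes were -0.11 ± 0.08 and -0.08 ± 0.09. Nr5a2 (LRH-1), an activator of bile acid synthesis genes, had blocked changes of 0.20, 0.09 and 0.59 at 25, 12.5 and 6.25 mg/kg, with adjusted p-values of 0.658, 0.917 and 0.231. Its fit had 18 of 19 arrays, as 1 value was missing. Vdr, the vitamin D receptor, was above background in 5 livers only, 2 controls, 2 at 6.25 mg/kg and 1 at 25. Its ratios ran from -3.50 to -2.40 in controls and from -3.33 to -2.65 at 25 mg/kg.

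Hnf4a, a master regulator of hepatocyte genes, ran from 4.72 to 6.31 in controls and from 4.84 to 6.20 at 25 mg/kg. Its blocked change was 0.03 ± 0.12 (95% interval -0.23 to 0.28), and the slide differences of -0.02, -0.02 and 0.06 were as small. In the liver channel alone, with no slide term, Hnf4a had 0.21 ± 0.09 at 25 mg/kg (limma adjusted p = 0.382). At 12.5 mg/kg that channel gave 0.30 ± 0.09 (adjusted p = 0.593), and neither passed. Hnf4g, a relative mainly of gut and kidney, was above background in 2 controls, 1 liver at 6.25 mg/kg and 1 at 25. Its log2 ratios ran from 0.00 to 1.24 in controls, -0.07 to 0.71 at 6.25 mg/kg, -0.08 to 0.78 at 12.5 and 0.06 to 0.85 at 25.

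Nr2f6 and Nr2f2, of the COUP-TF family, had the smallest unadjusted p-values among the orphan receptors at 12.5 and 6.25 mg/kg, in that order, in the ratio fit without the block. With the block that of Nr5a2 at 6.25 mg/kg was smaller (0.0032 in limma, against 0.0136 for Nr2f2). Nr2f6 (EAR2), a repressor studied mainly in T cells, had log2 ratios of 2.16 and 2.18 in the slide 1 controls, 1.81 and 1.80 on slide 2 and 1.92 on slide 3. The 12.5 mg/kg livers had 1.68, then 1.69 and 1.34, then 1.5, below every control. How many of all probes had that order at this dose was not counted. Nr2f6 was named for its small p at this dose, so the order is not separate support. At 6.25 mg/kg it ran from 1.49 to 1.91 and at 25 mg/kg from 1.61 to 1.94, overlapping with the controls. The change at 12.5 mg/kg was -0.42 ± 0.12 (unadjusted p = 0.00217, limma adjusted p = 0.873; blocked -0.40, adjusted p = 0.225). At 6.25 and 25 mg/kg it was -0.23 and -0.20. No dose passed.

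Nr2f2 (COUP-TFII), which is prominent in venous endothelium and mesenchyme, had log2 ratios of -1.36 and -1.11, -1.22 and -0.99, and -1.15 in controls. At 6.25 mg/kg they were -0.85, then -0.49 and -0.78, then -0.81 and -0.90, above every control. The share of all probes with that order at 6.25 mg/kg was not counted either, and Nr2f2 was likewise named for its small p there. Livers at 12.5 mg/kg had -1.28, then -0.98 and -0.94, then -0.88. Livers at 25 mg/kg had -1.12, then -0.85 and -1.11, then -0.59 and -0.31. The change was 0.40 ± 0.14 at 6.25 mg/kg (unadjusted p = 0.0112, limma adjusted p = 0.873; blocked 0.34, adjusted p = 0.305) and 0.37 ± 0.14 at 25 mg/kg (adjusted p = 0.497; blocked 0.31, adjusted p = 0.251). Neither passed. Endothelial markers averaged 2.46 to 3.26 in controls and 2.27 to 3.21 at 25 mg/kg, and stellate markers -1.27 to -0.86 and -1.19 to -0.61. Their part in the values of Nr2f2 was not tested. Nr2f1 (COUP-TFI) ran from -3.13 to -2.37 in controls and -3.07 to -2.87 at 25 mg/kg. The testicular receptors Nr2c1 and Nr2c2 had blocked changes at 25 mg/kg of 0.16 ± 0.09 and 0.08 ± 0.13.

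Of the steroid receptors, Nr3c1 encodes the glucocorticoid receptor, which drives gluconeogenic and stress genes. Its controls were -0.32 and -0.43, -0.56 and -0.45, and -0.44. At 25 mg/kg they were -0.20, then -0.48 and -0.24, then 0.07 and -0.17. The groups overlapped through 1 slide 2 liver. The change was 0.24 ± 0.10 (limma adjusted p = 0.611; blocked 0.23, adjusted p = 0.183). Its second probe gave 0.08 ± 0.33, and 0.34 ± 0.10 with the block (adjusted p = 0.101). Nr3c2, the mineralocorticoid receptor, was above background on 16 arrays, 2 of them at 12.5 mg/kg. Its log2 ratios ran from 0.20 to 0.61 in controls, 0.19 to 0.90 at 6.25 mg/kg, 0.21 to 0.38 at 12.5 and 0.29 to 0.89 at 25.

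Among the retinoid receptors Rarb, itself a classical target of retinoic acid, came closest to a difference. Its controls had log2 ratios of 0.51 and 0.45, 0.80 and 0.45, and 0.20. The highest dose gave 0.27, then 0.69 and 1.40, then 0.93 and 1.17. Within slides the difference was -0.21, 0.42 and 0.85, so slide 1 lay the other way. The change was 0.41 ± 0.17 (limma adjusted p = 0.574; blocked 0.37, adjusted p = 0.304). Rara and Rarg had blocked changes at 25 mg/kg of 0.18 ± 0.13 and 0.00 ± 0.08. The common heterodimer partners Rxra, Rxrb and Rxrg had 0.23 ± 0.10, -0.01 ± 0.07 and -0.09 ± 0.08. Rxrg had probes that disagreed at 12.5 mg/kg, -0.02 on the brightest and -0.92 on the other (unadjusted p = 0.0171, limma adjusted p = 0.999). The thyroid hormone receptors Thra and Thrb, of which the second is the main form in liver, had blocked changes at 25 mg/kg of -0.23 ± 0.14 and 0.20 ± 0.11.

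The Nr4a receptors are early response genes that act without a ligand. Nr4a1 ran from -3.90 to -3.60 in controls and from -4.14 to -3.63 at 25 mg/kg. Nr4a2 was near background: 2 of 5 controls, 3 of 5 livers at 6.25 mg/kg, 0 of 4 at 12.5 and 2 of 5 at 25 were above it. Its log2 ratios ran from -2.71 to -1.84 in controls, -2.42 to -1.66 at 6.25 mg/kg and -2.49 to -1.95 at 25. At 12.5 mg/kg no fold is given, because no array there was above background.

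In control liver 19 of the 33 tested genes had a mean log2 ratio above 0 after loess normalisation, with dye bias part of each ratio. The share over all genes was not counted. Among the 19, Hnf4g was above background in liver on 4 of 19 arrays and in reference on 3, and Esrrg in reference on 2. The highest mean ratios were those of Ppara at 6.72 ± 0.66 (SD, n = 5), Nr1i3 at 5.97 ± 0.61, Hnf4a at 5.52 ± 0.67 and Nr5a2 at 5.36 ± 0.68. Nr1h4, Nr1h3, Nr1i2 and Nr0b2 followed between 5.03 and 4.55. These neighbours did not differ beyond their SDs. Thrb was at 3.08 ± 0.44. The lowest was Nr4a1 at -3.82 ± 0.12, with Vdr at -2.86 and Nr2f1 at -2.85. Ppard and Esrra were mid-range, at -0.67 ± 0.48 and 0.20 ± 0.35. Probes of a gene could differ widely: Nr5a2 had 5.36 and 1.05, Ppara 6.72, 5.80 and 3.74, and Rxrg 1.07 and 3.60.

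**Figure D4:**
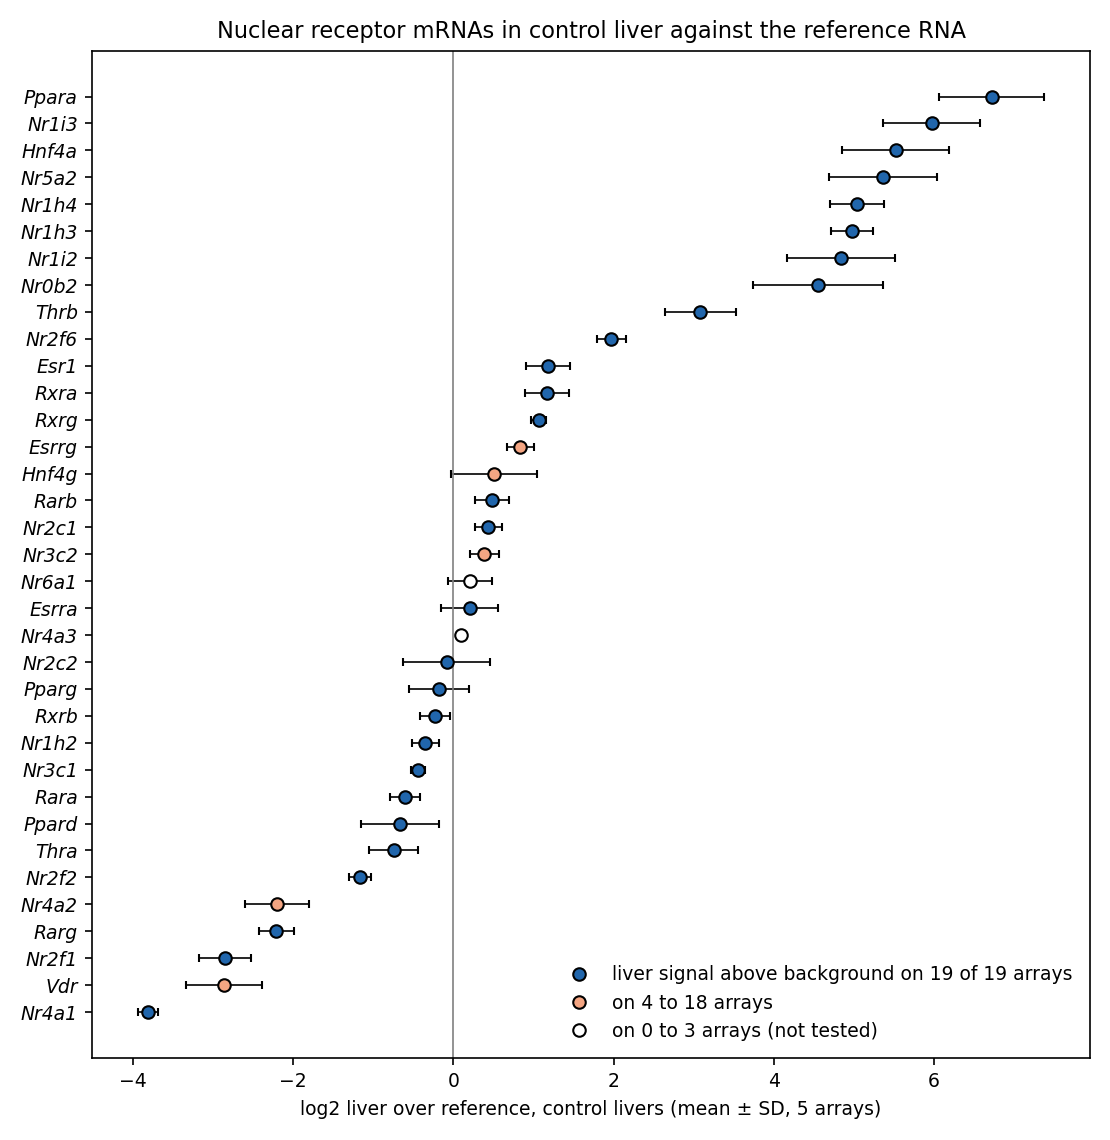
Mean log2 ratio of liver over reference in the 5 control livers for each of the 35 receptor genes, with bars of ± SD. Fill gives the number of arrays on which the liver signal was above background. Ppara (6.72) is at the top and Nr4a1 (-3.82) at the bottom.

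The receptors' partners and targets at 25 mg/kg were followed in gene lists, of which few members passed. With the block 6729 of all 13812 genes lay above control and 7083 below, and 83 rose and 54 fell past the threshold. Of 22 measured coregulators 13 were above control and 9 below (median 0.08), and none passed. Ppargc1b, a coactivator of ERR alpha, had 0.43 ± 0.14 (limma adjusted p = 0.363; blocked 0.168) and Lpin1, which works with PPAR alpha and PGC-1 alpha, 0.71 ± 0.31. Of 25 PPAR alpha targets 10 were above and 15 below (median -0.05), and with the block 15 above and 10 below (median 0.03). Those of smallest p were Plin2, a lipid droplet coat protein, at -0.69 ± 0.18, Pdk4, which blocks glucose oxidation, at -1.28 ± 0.38, and the hormone Fgf21 at -0.84 ± 0.24. None of these passed with the block either (adjusted p = 0.0641, 0.0668 and 0.109).

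Of 22 CAR and PXR targets 11 were above and 11 below, and with the block 15 and 7. Por, the electron donor of microsomal P450 enzymes, had 1.81 ± 0.40 (adjusted p = 0.101) and rose with the block by 1.89 (adjusted p = 0.0346). Abcb1a, a drug efflux pump, had 0.48 ± 0.13 (blocked adjusted p = 0.0783). Of 10 thyroid hormone targets 5 were above and 5 below (6 and 4 with the block), and Upp2, a uridine phosphorylase, rose with the block by 1.80 (adjusted p = 0.0359; 1.62 ± 0.56 and 0.409 without). Of 15 bile acid genes 3 were above and 12 below (median -0.17), and with the block 8 and 7 (median 0.01). Of 16 LXR targets 8 were above and 8 below, and with the block 12 and 4. Of 12 retinoid genes 6 were above and 6 below in both fits, and of 14 immediate early genes 8 and 6, or 11 and 3 with the block. None of these passed in either fit.

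All 14 HNF4 alpha targets measured were below control at 25 mg/kg without the block (median -0.16), and none passed. With the block 8 were above and 6 below (median 0.04), so the common sign was not kept. Of 20 glucocorticoid receptor targets 8 were above and 12 below. Per1, which is also a clock gene, had 1.32 ± 0.32 (adjusted p = 0.163; blocked 0.0722) and Fkbp5, a receptor cochaperone, 0.76 ± 0.22 (adjusted p = 0.266). Over all 13812 genes the median was -0.01, and 48.3% lay above control, both without the block.

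The receptors of the clock loop, taken for comparison, included 1 gene that passed at 25 mg/kg in the ratio fit without a slide term. None of the 33 other receptors did, and of all 13812 genes only 6 rose and 1 fell in that fit. Nr1d2 (REV-ERB beta), a repressor, rose by 1.35 ± 0.21 at 25 mg/kg (limma adjusted p = 0.0130; blocked 1.28, adjusted p = 0.00578). Nr1d1 had 0.07 ± 0.44 and Rora -0.15 ± 0.13, and neither passed. The difference between the clock loop receptors and the others was not tested.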

How the data were processed

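Liver RNA of 19 mice was hybridised to Agilent 2-colour arrays against a common reference, per the labels. Per the file headers, the scanner files hold spot intensity values made with version 10.7.3.1 of Feature Extraction. The table of log2 ratios deposited by the authors has column medians of -0.0355 to -0.0217; its centring and scaling are not given in the sources used here, so it served as an alternative only.

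Median signals were background corrected (normexp, offset 50) and loess normalised within each array. For the liver channel alone, the red signals were corrected in the same way and quantile normalised between the 19 arrays. Outlier spots were set missing (0.696% of kept values), and spots of a probe were averaged. A probe was kept if its liver signal was well above background on at least 4 arrays, which left 29415 of 55681. Linear models over all 19 arrays were fitted with limma 3.58.1 in R 4.3.3 (statmod 1.5.0), and p-values were Benjamini-Hochberg adjusted over all kept probes. Calls used an adjusted p under 0.05. The method was also run on simulated data, but the outcome is not given here. That run therefore lends no support to the calls made with the slide block or in the liver channel. Slide was added as a fixed block. Each array is 1 animal, and the number of arrays limits the precision. Dyes were never swapped, so dye bias is part of each ratio.

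One gene of the lists is not reported here. Genes were named through RefSeq accessions (GRCm38.p6), which gave a symbol to 47.4% of the non-control probes. The brightest kept probe stood for a gene. Members with an adjusted p under 0.05 in any of the 6 comparisons, and those of smallest p at each dose, are given by array or range, the others by range, mean or change. Up to 4 genes of smallest p are given of each list. The members and lists were chosen with earlier results of these data known. Alternatives covered slide, background correction, signal, normalization, filter, variance model, threshold, probes of a gene and left-out arrays.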

Additional observations from a re-analysis of the deposited data

Results flagged for a closer look

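The Ppard log2 ratio of 25 mg/kg replicate 5, on slide 1, was -2.0. It lay far below the other 4 livers of its group, of which the nearest was at -1.31 and the farthest at -1.25. The Nr2f2 log2 ratio of 6.25 mg/kg replicate 3, on slide 2, was -0.49. It lay above the other 4 livers of its group, of which the nearest was at -0.78 and the farthest at -0.90. Such gaps were looked for in 32 groups of 8 receptor genes and found in these 2, where chance alone would give about 1 in 20 groups.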

How the results depend on the processing

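Most results kept their side of the threshold. In the ratio fit with no slide term 0 members passed in any of the 6 comparisons, and this stayed at 0 to 0 when each array was left out. Slide as a fixed block gave 2 members at 25 mg/kg, 1 at any dose and 1 in all treated livers. Slide as a random block gave 2 and 1 for 25 mg/kg and all treated livers, and the liver channel alone, with no slide term, gave 2 and 1. No result reversed in the alternative fits, but signs within single slides could differ. At 25 mg/kg the slide 1 difference was -0.21 for Rarb and -0.04 for Nr1h4. The unblocked changes over all slides were 0.41 and 0.40, and slides 2 and 3 kept that sign for both genes. The number of receptors with a mean log2 ratio above 0 in control liver was 19 to 20 with each control left out. In combinations chosen after seeing the data, the blocked call of Ppard at 25 mg/kg held with 5 other signals or normalizations (adjusted p = 0.0143 to 0.0292). That of Esrra was lost with the scanner software's processed signals (0.53, adjusted p = 0.0925). With each array left out, the blocked Ppard change ran from -0.99 to -0.76 and that of Esrra from 0.57 to 0.75. No paired analysis was possible because the labels give no replicate numbers that the groups share.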
